A study of Mus musculus with 36 samples.

Results

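Surfactant and alveolar type 2 transcripts are described here as 9 genes, Sftpa1, Sftpb, Sftpc, Sftpd, Abca3, Napsa, Lamp3, Slc34a2 and Etv5, in RNA from mouse lung lavage macrophages. Each gene was taken from the array feature annotated with its symbol alone, and these 9 stand among 18820 genes that have such a feature. Only Etv5 had 2 such features, and the feature of higher mean was used. All 9 were measured on all 36 arrays (Affymetrix Mouse Gene 1.0 ST), and none was removed for low values. The mice were male, of strain C57Bl/6N Tac, and either carried the Scnn1b transgene (Tg) or were wild-type littermates (WT). Club cells of the airway drive the transgene, which encodes a subunit (beta) of the channel that takes up sodium, and these are not the cells assayed here. Each genotype had 3 arrays at postnatal day (PND) 0, 4 at PND 3, 4 at PND 10 and 4 at PND 42 from a specific-pathogen-free (SPF) facility, and 3 at PND 42 from a germ-free (GF) facility. For ages up to PND 10 an array held the lavage cells of 3 pups together, and at PND 42 those of 1 mouse. Cells bearing Ly-6G, a granulocyte surface marker, had been removed in every group. Negative selection of this kind leaves other Ly-6G-negative cells of the lavage in the sample.

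Pulmonary surfactant is a film of lipid and protein that lowers surface tension in the air spaces and keeps alveoli open from the first breath. Alveolar type 2 cells make it, store it in lamellar bodies and secrete it, and they take part of it up again. Alveolar macrophages do not make surfactant but clear it, under the control of the cytokine GM-CSF and the nuclear receptor Pparg. The surfactant protein genes are regulated in lung epithelium by the transcription factor NKX2-1 together with FOXA and C/EBP factors.

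The promoters of 6 of the 9 genes were matched in the RefSeq promoter table (GRCm38.p6), in 7 windows of 250 bases upstream of a start site, since Etv5 has 2. Sftpc, Sftpd and Napsa have no entry. The windows of Sftpb (chr6:72304360-72304609, plus strand), Sftpa1 (chr14:41131538-41131787, plus strand) and Slc34a2 (chr5:53049103-53049352, plus strand) are shown because these genes lost most of their signal together after birth. Capitals mark matches to CTCAAG or CNNCAAG, forms of the NKX2-1 motif searched on both strands.
Sftpb: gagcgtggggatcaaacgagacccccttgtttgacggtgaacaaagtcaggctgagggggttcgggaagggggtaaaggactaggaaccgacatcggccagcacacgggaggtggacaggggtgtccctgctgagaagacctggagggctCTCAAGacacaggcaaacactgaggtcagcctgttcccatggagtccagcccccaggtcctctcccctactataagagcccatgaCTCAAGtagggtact
Sftpa1: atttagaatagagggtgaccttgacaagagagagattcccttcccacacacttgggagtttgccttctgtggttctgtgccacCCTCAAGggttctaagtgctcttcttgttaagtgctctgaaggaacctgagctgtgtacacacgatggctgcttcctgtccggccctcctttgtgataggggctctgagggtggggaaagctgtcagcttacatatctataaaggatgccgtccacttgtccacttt
Slc34a2: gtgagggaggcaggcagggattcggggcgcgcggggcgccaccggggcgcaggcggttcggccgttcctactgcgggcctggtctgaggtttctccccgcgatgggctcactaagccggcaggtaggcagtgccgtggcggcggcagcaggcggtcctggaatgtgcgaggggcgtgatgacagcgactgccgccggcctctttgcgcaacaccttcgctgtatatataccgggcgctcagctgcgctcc

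Sftpb held CTCAAG at 100 and 15 bases upstream of its start site, and Sftpa1 held it at 166, where it overlaps a CNNCAAG match at 167. CTCAAG was in the windows of 2 of the 6 genes and in 13.3% of all 32851 promoter windows of this length. CNNCAAG was in the windows of Sftpa1 and of Abca3 (215 bases upstream) and in 40.3% of all windows. Slc34a2 held neither. TNTTTAC, a FOXA motif, was found for Lamp3 and Etv5 (10.9% of all windows), and TTNCNNAA, a C/EBP motif, for Sftpb and Slc34a2 (36.8%). These are matches of letters and not mapped binding sites. Sftpa1 (chr14:41131788-41136373) and Sftpd (chr14:41172212-41185198) lie near each other on chromosome 14, which also carries Sftpc (chr14:70520941-70524081).

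Signal is given throughout as the deposited log2 value of a feature, and array medians ran between 3.72 and 4.06. A group mean at or below 4.06 is called near background. No macrophage marker of 12 listed was near background in any group, and the mean of that list ran between 7.92 and 8.57 in Tg and between 8.43 and 9.07 in WT at PND 0, and between 9.27 and 10.19 in all later groups. Scnn1b, the transgene's own gene, read 10.23, 10.33 and 5.47 in Tg and 4.06, 5.27 and 6.68 in WT at PND 0. The library labelled Tg PND 0 replicate 3 thus lay within the WT range, and the changes of the 9 genes after birth and between genotypes at PND 0, and the list counts, are given below without it too. Markers of skeletal muscle (12 of 12) and fibroblasts (8 of 11), and of red cells (5 of 7 measured), were called higher in Tg than in WT at PND 0 and none at PND 3, and their list means at PND 0 ran between 5.96 and 7.19 in Tg against 3.52 and 3.91 in WT for muscle and between 5.65 and 8.20 in Tg against 5.30 and 6.28 in WT for fibroblasts. Without the library labelled Tg PND 0 replicate 3, 12 of 12 muscle, 3 of 11 fibroblast and 5 of 7 red cell markers were called higher. Of 12 macrophage markers, 3 were called lower in Tg than in WT at PND 0, and 6 without that library. Across all 28940 features, with every array kept, 792 were called higher and 460 (1.59%) lower in Tg than in WT at PND 0.

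Between birth and PND 3 most of these genes fell steeply in both genotypes. Of the 9 genes, 7 fell in Tg arrays, where 14.0% of all 28940 features were called lower, and the same 7 fell in WT arrays, where 12.0% were. These were the surfactant proteins Sftpa1, Sftpb, Sftpc and Sftpd with Slc34a2, Lamp3 and Etv5. For each of them every PND 3 array lay below every PND 0 array, in Tg and in WT, which held for 13.4% of all features in Tg and 12.7% in WT. The median change over the 9 genes was −3.49 in Tg and −4.03 in WT on the log2 scale, and that over all features was 0.04 in Tg and 0.00 in WT. Calls throughout are at an adjusted p of 0.05 in limma's moderated test, adjusted over all features. In these bulk samples fewer cells of a type and less RNA per cell cannot be told apart.

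**Figure D1:**
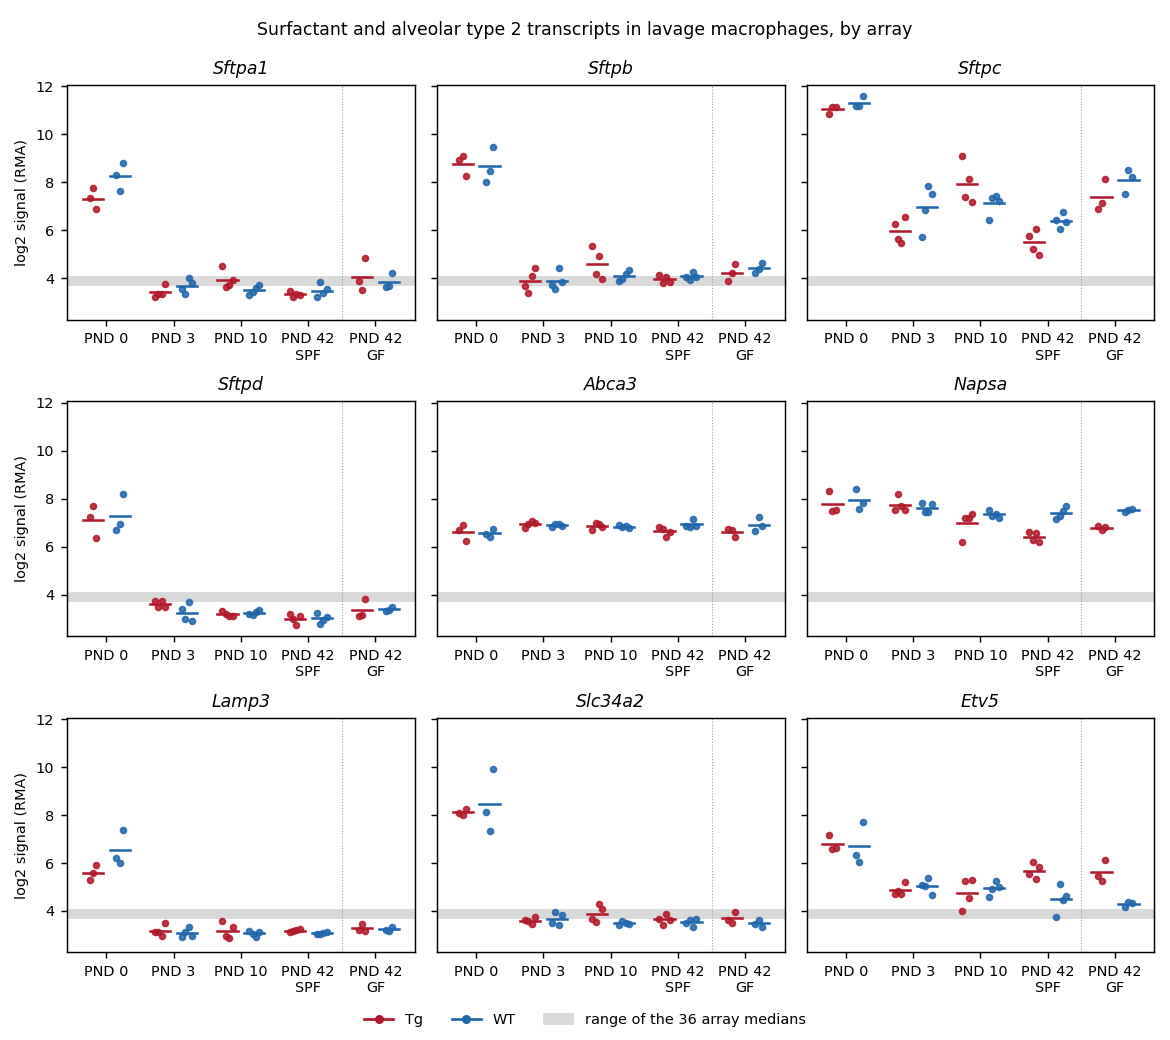
Each panel plots the log2 signal of a gene (vertical axis) in each array against postnatal day and housing, with Tg left of WT, points for arrays, bars for group means and a grey band for the range of the 36 array medians. For Sftpa1, Sftpb, Sftpd, Lamp3 and Slc34a2 the PND 0 arrays stand at 5.30 to 9.93, and most arrays of later days in, below or near the grey band. Single later arrays stand higher, up to 5.33 for Sftpb in Tg at PND 10 and 4.83 for Sftpa1 in GF Tg mice. Sftpc stays above the band. Abca3 and Napsa read between 6.23 and 8.40 at PND 0 and between 6.79 and 8.18 at PND 3.

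Sftpb encodes the hydrophobic surfactant protein that the lipid film cannot form without. In Tg arrays it read 3.69, 3.39, 4.09 and 4.41 at PND 3 and 8.93, 9.12 and 8.25 at PND 0. In WT arrays it read 3.73, 3.55, 4.41 and 3.87 at PND 3 and 8.03, 8.47 and 9.48 at PND 0. The gap between the highest PND 3 array and the lowest PND 0 array was wider than the spread within any of these groups. The change was −4.87 ± 0.30 in Tg (SE, limma adjusted p = 7.92e-14) and −4.77 ± 0.30 in WT (adjusted p = 1.86e-13), or 29.2-fold lower in Tg and 27.3-fold lower in WT. Both PND 3 means, 3.90 in Tg and 3.89 in WT, were near background, so that these folds are lower limits.

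Sftpc encodes the other hydrophobic surfactant protein, which in the adult lung is confined to type 2 cells. Tg arrays read 6.27, 5.65, 5.49 and 6.54 at PND 3 and 10.86, 11.13 and 11.13 at PND 0. WT arrays read 5.73, 6.86, 7.83 and 7.51 at PND 3 and 11.16, 11.19 and 11.61 at PND 0. PND 0 arrays agreed closely with each other in both genotypes, while WT arrays of PND 3 spread widely (SD 0.93, n = 4). The change was −5.05 ± 0.42 in Tg (adjusted p = 5.38e-11) and −4.34 ± 0.42 in WT (adjusted p = 1.71e-09). Unlike the other surfactant proteins, Sftpc stayed above background at PND 3, with means of 5.99 in Tg and 6.99 in WT.

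The collectins Sftpa1 and Sftpd, which bind microbes and help macrophages take up particles, fell to background. Sftpa1 read 3.24, 3.36, 3.36 and 3.76 at PND 3 against 7.34, 7.76 and 6.88 at PND 0 in Tg. In WT it read 3.56, 3.35, 4.01 and 3.81 at PND 3 against 8.29, 7.64 and 8.82 at PND 0. Its change was −3.89 ± 0.27 in Tg (adjusted p = 8.91e-13) and −4.57 ± 0.27 in WT (adjusted p = 4.17e-14). Sftpd read 3.72, 3.50, 3.75 and 3.50 at PND 3 against 7.23, 7.72 and 6.37 at PND 0 in Tg. In WT it read 3.41, 2.99, 3.69 and 2.91 at PND 3 against 6.71, 6.97 and 8.18 at PND 0. The change of Sftpd was −3.49 ± 0.26 in Tg (adjusted p = 4.75e-12) and −4.03 ± 0.26 in WT (adjusted p = 3.06e-13). At PND 0 replicate 3 of WT was the highest WT array for both collectins, and replicate 3 of Tg the lowest Tg array.

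Slc34a2 is the sodium phosphate cotransporter of type 2 cells, which recovers phosphate freed from surfactant lipid. It read 3.61, 3.58, 3.46 and 3.74 at PND 3 against 8.07, 8.01 and 8.24 at PND 0 in Tg, and 3.51, 3.94, 3.42 and 3.84 at PND 3 against 8.12, 7.32 and 9.93 at PND 0 in WT. Its change was −4.51 ± 0.31 in Tg (adjusted p = 6.67e-13) and −4.78 ± 0.31 in WT (adjusted p = 2.94e-13). Lamp3, a membrane protein of lamellar bodies that mature dendritic cells also carry, read 3.11, 3.12, 2.94 and 3.49 at PND 3 against 5.30, 5.57 and 5.92 at PND 0 in Tg. In WT it read 2.92, 3.13, 3.34 and 2.95 at PND 3 against 6.22, 6.00 and 7.39 at PND 0. Its change was −2.43 ± 0.21 in Tg (adjusted p = 8.05e-11) and −3.45 ± 0.21 in WT (adjusted p = 6.35e-14). Etv5, an ETS transcription factor that type 2 cells need to keep their identity, fell less and stayed above background. It read 4.72, 4.85, 4.70 and 5.22 at PND 3 against 7.15, 6.58 and 6.62 at PND 0 in Tg, and 5.07, 5.02, 5.37 and 4.66 at PND 3 against 6.35, 6.06 and 7.70 at PND 0 in WT. Its change was −1.91 ± 0.33 in Tg (adjusted p = 2.54e-05) and −1.67 ± 0.33 in WT (adjusted p = 0.000185), and its other feature gave −1.69 in Tg and −2.18 in WT. Without the library labelled Tg PND 0 replicate 3, the same 7 genes were called lower in Tg. Sftpb was then at −5.12, Sftpc at −5.01, Slc34a2 at −4.45, Sftpa1 at −4.12, Sftpd at −3.85, Lamp3 at −2.27 and Etv5 at −1.99, and the adjusted p of Etv5, the highest of these, was 0.000112.

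**Figure D2:**
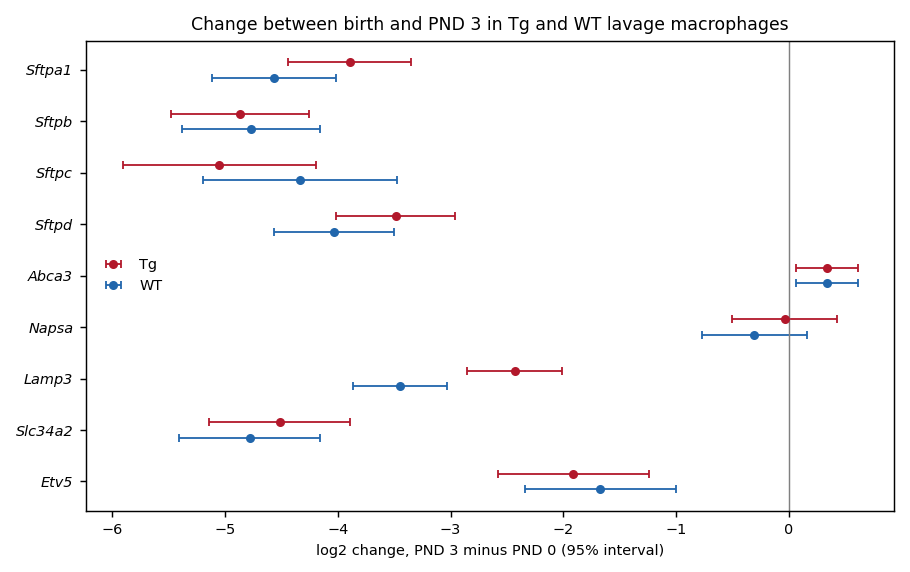
The horizontal axis gives the log2 change, PND 3 minus PND 0, of each of the 9 genes, with its 95% interval from the fit, Tg above WT. The intervals of 7 genes lie wholly below 0 in both genotypes, that of Napsa crosses 0, and that of Abca3 lies just above it at 0.34 in Tg and 0.34 in WT.

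Abca3 and Napsa did not follow the others. Abca3 is the transporter that loads lipid into lamellar bodies. It read 6.79, 6.94, 7.07 and 6.99 at PND 3 against 6.71, 6.90 and 6.23 at PND 0 in Tg, and 6.83, 6.93, 6.93 and 6.87 at PND 3 against 6.53, 6.41 and 6.72 at PND 0 in WT. All 4 WT arrays of PND 3 lay above the WT arrays of PND 0, and 3 of 4 Tg arrays above the Tg ones. Of all features, 15.1% in WT and 17.8% in Tg had every PND 3 array above every PND 0 array. Its change of 0.34 ± 0.13 in Tg (adjusted p = 0.0574) and 0.34 ± 0.13 in WT (adjusted p = 0.0628) did not pass the threshold. Array medians were higher at PND 0 than at PND 3, and centring each array on its median moved every change by 0.25 in Tg and 0.24 in WT. Abca3 was then called higher, by 0.58 in Tg (adjusted p = 0.000839) and by 0.58 in WT (adjusted p = 0.00109). Repeating the quantile normalisation moved the change of Abca3 the other way, to 0.12 in Tg (adjusted p = 0.564) and 0.11 in WT (adjusted p = 0.646). Without the library labelled Tg PND 0 replicate 3 its change in Tg was 0.14 (adjusted p = 0.496). Its change passed the threshold without replicate 3 of WT at PND 0 (0.42 in WT), without replicate 2 of Tg at PND 0 (0.48 in Tg) and without replicate 1 of Tg at PND 3 (0.39 in Tg).

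Napsa encodes an aspartic protease that cuts the precursor of surfactant protein B. It read 7.54, 8.18, 7.71 and 7.51 at PND 3 against 8.33, 7.47 and 7.53 at PND 0 in Tg. In WT it read 7.81, 7.46, 7.46 and 7.76 at PND 3 against 8.40, 7.56 and 7.82 at PND 0. The groups overlapped in both genotypes. The change was −0.04 ± 0.23 in Tg (adjusted p = 0.938, 95% interval −0.50 to 0.43) and −0.31 ± 0.23 in WT (adjusted p = 0.39, 95% interval −0.77 to 0.16), and in Tg it was −0.16 (adjusted p = 0.724) without the library labelled Tg PND 0 replicate 3. The level of these 2 genes was above background in all 10 groups, with group means between 6.55 and 6.95 for Abca3 and between 6.42 and 7.93 for Napsa.

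The fall of Lamp3 alone among the 9 genes differed between genotypes at the threshold, being smaller in Tg than in WT by 1.02 ± 0.29 on the log2 scale (interaction, adjusted p = 0.0482). Of all features, 1.69% were called for a higher change in Tg. The interaction kept its sign but not its call without 9 of the 14 arrays taken in turn, namely replicates 1 and 2 of Tg at PND 0, replicates 1, 2 and 4 of Tg at PND 3, replicate 3 of WT at PND 0 and replicates 1, 2 and 4 of WT at PND 3, with a lowest value of 0.59 (adjusted p = 0.118, without replicate 3 of WT at PND 0). It was not called in a fit on these groups alone (adjusted p = 0.354), and it was called without the library labelled Tg PND 0 replicate 3 (1.18, adjusted p = 0.0238). At PND 3 Lamp3 was near background in both genotypes (means of 3.16 in Tg and 3.08 in WT). The interaction therefore mostly restates the difference of Lamp3 at PND 0 (−0.94, below).

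Other epithelial genes fell alongside the 7 that fell. Of all features, 16.0% were called higher at PND 3 than at PND 0 in Tg and 14.0% in WT. Of 18 further genes listed for type 2 cells, 15 fell and 1 rose in Tg, and 16 fell and 1 rose in WT, with a median change of −2.05 in Tg and −2.27 in WT. Cxcl15, a lung chemokine, changed by −3.84 in Tg and −5.61 in WT, and S100g, a calcium-binding protein, by −4.40 in Tg and −4.64 in WT. Nkx2-1, the regulator named above, read 3.63 to 3.84 at PND 3 against 6.25 to 6.66 at PND 0 in Tg, and 3.49 to 3.85 at PND 3 against 5.65 to 6.76 at PND 0 in WT. Its change was −2.70 ± 0.15 in Tg (adjusted p = 7.85e-15) and −2.42 ± 0.15 in WT (adjusted p = 1.56e-13), and −2.78 in Tg without the library labelled Tg PND 0 replicate 3. Chil1, a chitinase-like protein that myeloid cells also make, changed by 1.18 in Tg (adjusted p = 0.0878) and by −3.07 in WT (adjusted p = 2.4e-05).

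Genes listed for lipid synthesis and processing were mixed, with 3 higher and 4 lower of 14 in Tg and 4 higher and 6 lower of 14 in WT. The lipogenic enzymes Scd1 (−2.90 in Tg, −3.24 in WT) and Fasn (−1.76 in Tg, −1.33 in WT) fell, and the lysosomal lipase Lipa rose (1.18 in Tg, 0.93 in WT). Of 15 genes listed for surfactant clearance by macrophages, 10 rose and 2 fell in Tg and 9 rose and 2 fell in WT, with a median change of 0.79 in Tg and 0.56 in WT. The cholesterol exporter Abca1 rose by 3.92 in Tg and 2.08 in WT, the GM-CSF receptor subunit Csf2ra by 1.22 in Tg and 1.01 in WT, and the alveolar macrophage lectin Siglecf by 2.41 in Tg and 2.89 in WT. Pparg did not pass the test in either genotype (−0.04 in Tg, 0.11 in WT), and the fatty acid binding protein Fabp4 fell (−1.76 in Tg, −2.28 in WT).

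Markers of other epithelial cells fell too. Of 15 alveolar type 1 genes, 12 fell and 1 rose in Tg and 13 fell in WT. Of 14 general epithelial genes, 14 fell in Tg and 13 in WT, and of 12 club cell genes, 11 fell in Tg and 12 in WT. Of 11 ciliated cell genes, 10 fell in each genotype. The fall was not confined to epithelial lists. The mean of the fibroblast list averaged 4.05 at PND 3 against 7.29 at PND 0 in Tg. In WT it averaged 3.95 at PND 3 against 5.78 at PND 0. The skeletal muscle list averaged 3.57 at PND 3 against 6.41 at PND 0 in Tg, but 3.57 against 3.68 in WT. The red cell list averaged 4.28 at PND 3 against 6.05 at PND 0 in Tg, where PND 0 arrays ran from 3.63 to 7.66. In WT the red cell list averaged 4.41 at PND 3 against 3.78 at PND 0. Without the library labelled Tg PND 0 replicate 3, 9 of 11 fibroblast genes fell in Tg. The mean of the general epithelial list ran between 4.53 and 4.65 at PND 3 and between 7.57 and 8.42 at PND 0 in Tg, and between 4.37 and 4.62 at PND 3 and between 7.05 and 8.28 at PND 0 in WT. That of the club cell list ran between 5.09 and 5.63 at PND 3 and between 8.84 and 9.53 at PND 0 in Tg, and between 5.20 and 5.49 at PND 3 and between 8.28 and 9.51 at PND 0 in WT. At PND 3, 8 of 14 general epithelial genes were near background in Tg and 9 in WT, and none was at PND 0. Epcam, a surface protein of epithelial cells, averaged 3.91 at PND 3 against 7.23 at PND 0 in Tg and 4.14 at PND 3 against 7.03 at PND 0 in WT. In SPF WT mice at PND 42 Epcam averaged 6.77 again. Without the library labelled Tg PND 0 replicate 3, the counts in Tg were 15 fallen and 1 risen of 18 further type 2 genes, 12 fallen and 1 risen of 15 type 1 genes, 14 fallen of 14 general epithelial genes, 11 of 12 club and 10 of 11 ciliated cell genes, 6 fallen and 2 risen of 14 lipid genes, and 2 fallen and 10 risen of 15 clearance genes. The part of epithelial cells or fibroblasts, or of their RNA, in the fall of the 9 genes was not tested.

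**Figure D3:**
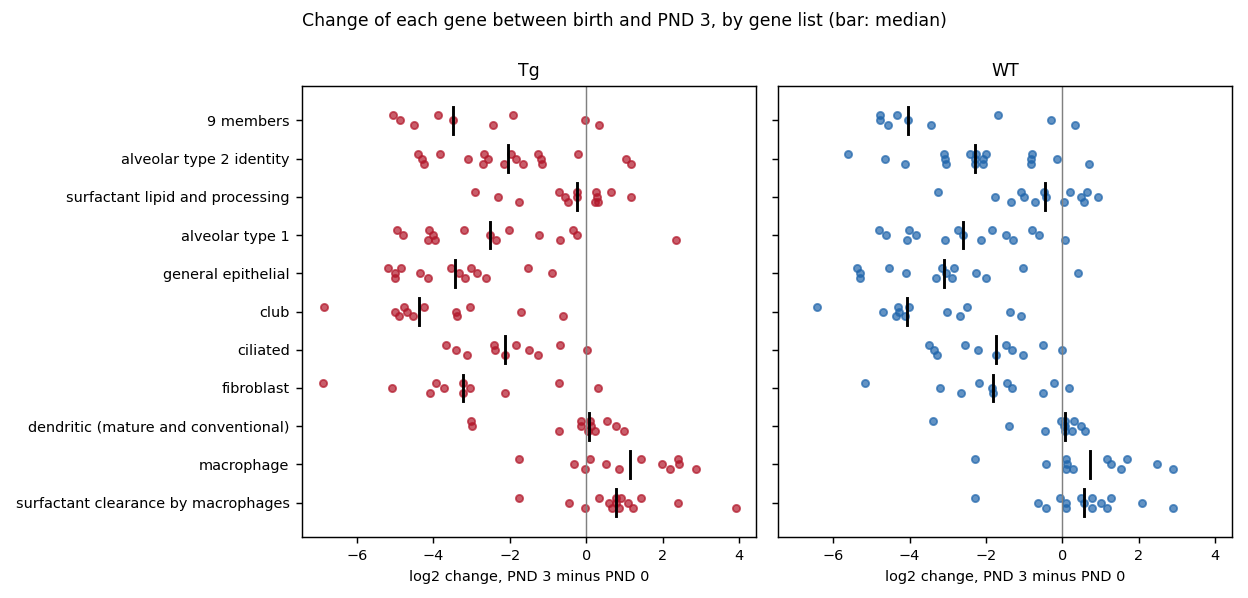
Points give the log2 change, PND 3 minus PND 0 (horizontal axis), of each measured gene of a list (rows), Tg left and WT right, and black bars the list medians. The 9 genes have a median of −3.49 in Tg and −4.03 in WT, between those of the ciliated and the club cell lists, while the macrophage list (1.14 in Tg, 0.72 in WT) and the clearance list (0.79 in Tg, 0.56 in WT) lie above 0. The median of the fibroblast list lies below 0 in both genotypes.

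In WT arrays after PND 3, none of the 9 genes was called by limma between PND 3 and PND 10, where 0.131% of all features were in either direction, or between PND 10 and PND 42, where 2.50% were, and 0 of the 9 had an unadjusted p under 0.05 in either comparison. Sftpa1, Sftpd, Lamp3 and Slc34a2 had means near background in all 8 groups after birth, except Sftpa1 in GF Tg mice at 4.07. In Tg arrays, Sftpc was the single gene of the 9 called higher at PND 10 than at PND 3, where 0.518% of features were. It was also the single gene called lower at PND 42 than at PND 10, where 2.03% were. Napsa in Tg read 6.18, 7.17, 7.20 and 7.38 at PND 10, all below the Tg arrays of PND 3, and its change of −0.75 ± 0.21 did not pass (adjusted p = 0.0703). Without replicate 4 of Tg at PND 10 it did (−0.89, adjusted p = 0.0439), while without replicate 1 of Tg at PND 10 it was −0.49 (adjusted p = 0.379) and without replicate 2 of Tg at PND 3 it was −0.61 (adjusted p = 0.332). Etv5 in Tg read 5.53, 6.06, 5.33 and 5.82 at PND 42, all above the 3.98, 5.23, 4.53 and 5.29 of PND 10, and its change between these ages of 0.92 ± 0.30 did not pass either (adjusted p = 0.0815). Of all features in Tg, 3.13% had every PND 10 array above every PND 3 array, and 2.87% had every one below. For PND 42 against PND 10 in Tg these shares were 5.19% above and 4.84% below.

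Over the 4 ages, Sftpc in Tg averaged 11.04 ± 0.16 (SD, n = 3), 5.99 ± 0.50 (n = 4), 7.95 ± 0.86 (n = 4) and 5.50 ± 0.50 (n = 4) at PND 0, 3, 10 and 42. In WT it averaged 11.32 ± 0.25 (n = 3), 6.99 ± 0.93 (n = 4), 7.12 ± 0.46 (n = 4) and 6.40 ± 0.29 (n = 4) at the same ages. Tg arrays of PND 10 read 9.08, 7.40, 8.13 and 7.17, all above the Tg arrays of PND 3, and those of PND 42 read 5.76, 5.21, 6.06 and 4.97, all below the Tg arrays of PND 10. The change in Tg was 1.96 ± 0.39 between PND 3 and PND 10 (adjusted p = 0.0041) and −2.44 ± 0.39 between PND 10 and PND 42 (adjusted p = 0.000147). In a fit on those groups alone the adjusted p of the first was 0.0662. WT arrays of PND 10 read 6.44, 7.37, 7.45 and 7.23 and those of PND 42 read 6.42, 6.07, 6.76 and 6.33, and the WT changes were 0.14 ± 0.39 and −0.72 ± 0.39 (adjusted p = 1 and 0.523).

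These courses of Sftpc were not shown to differ between genotypes. The difference of the change between PND 3 and PND 10, Tg minus WT, was 1.82 ± 0.55 (adjusted p = 0.509), with 0.0553% of features called in either direction, and that between PND 10 and PND 42 was −1.72 ± 0.55 (adjusted p = 0.236), with 0.639% called. Sftpb and Sftpa1 in Tg moved by 0.70 (adjusted p = 0.337) and 0.52 (adjusted p = 0.509) between PND 3 and PND 10, with 2 of 4 arrays of PND 10 above all of PND 3 for each. Tg PND 10 replicate 1 was the highest array of its group for Sftpa1 (4.53), Sftpb (5.33) and Sftpc (9.08).

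Of the other epithelial genes listed, Cdh1 alone was called higher with Sftpc in Tg at PND 10 than at PND 3. In Tg at PND 3, 14 of 18 further type 2 and 8 of 14 general epithelial genes were near background. As many were at PND 10, so the counts of these lists can show little about such genes. Of 12 club cell genes, 0 rose and 7 fell, among them Scgb1a1 (−2.04), the main club cell secretory protein, and Reg3g (−2.76), a secreted lectin. Of 18 further type 2 genes 0 rose and 1 fell (Chil1, −4.26), of 15 type 1 genes 0 passed in either direction, and of 14 general epithelial genes 1 rose (Cdh1, 0.89), an adhesion protein that alveolar macrophages also carry. Of 12 macrophage genes, 5 rose, Siglecf by 0.91. Between PND 10 and PND 42, 6 of 12 club cell genes rose, Scgb1a1 by 3.08, while S100g fell by 0.99 with Sftpc and 4 of 15 type 1 genes fell, Ager by 1.14.

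**Figure D4:**
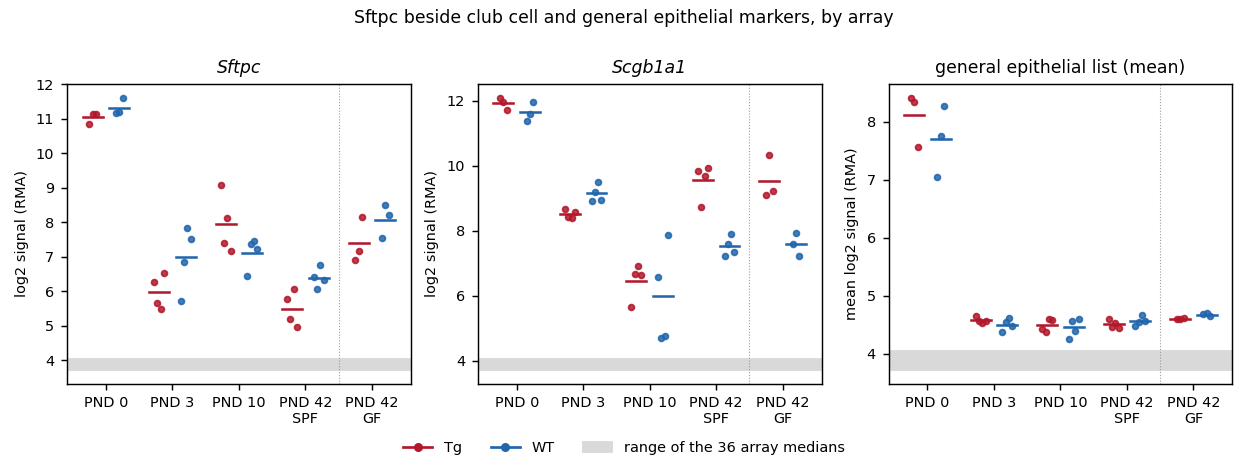
The panels plot Sftpc, Scgb1a1 (both log2 signal) and the mean log2 signal of 14 general epithelial genes by array against postnatal day and housing, Tg left of WT, with bars for group means and a grey band for the range of array medians. In Tg, Sftpc is higher at PND 10 (7.95) than at PND 3 (5.99), where Scgb1a1 is lower at PND 10, and the epithelial mean stays between 4.38 and 4.65 in both groups.

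Between genotypes, few of the 9 genes differed at any age. At PND 0, Lamp3 read 5.30, 5.57 and 5.92 in Tg and 6.22, 6.00 and 7.39 in WT, so that all Tg arrays lay below all WT arrays. Such a separation was found for 6.69% of all features. The difference of Lamp3 was −0.94 ± 0.22 (adjusted p = 0.0111), and Lamp3 was the single gene of the 9 called lower, against 1.59% of all features. Sftpa1 differed by −0.93 ± 0.29 (adjusted p = 0.0603), with 2 of 3 Tg arrays below all WT arrays. The Lamp3 call ended in a fit on these groups alone (adjusted p = 0.861), with array weights (−0.70, adjusted p = 0.216), without replicate 3 of WT (−0.51, adjusted p = 0.0633) or replicate 1 of Tg (−0.79, adjusted p = 0.0948), and held without the library labelled Tg PND 0 replicate 3 (−1.10, adjusted p = 0.00591), as it did with replicate 3 of both genotypes left out together (−0.67, adjusted p = 0.0143). Sftpa1 passed the threshold without replicate 2 of WT (−1.23, adjusted p = 0.0138) or replicate 2 of Tg (−1.14, adjusted p = 0.0204), whereas it was −0.64 without replicate 3 of WT (adjusted p = 0.208), −0.70 without the library labelled Tg PND 0 replicate 3 (adjusted p = 0.228) and −0.42 with replicate 3 of both genotypes left out (adjusted p = 0.515). Without that Tg library alone, the other 7 genes differed by −0.42 to 0.36, with none called. The higher muscle and fibroblast markers of the Tg arrays at this age stand beside these values, and their part in them was not tested.

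No gene of the 9 was called at PND 3, when 4.05% of features were called in either direction, or at PND 10, when 1.57% were, and 1 gene had an unadjusted p under 0.05 at each age. This was Sftpc. At PND 3 it read 6.27, 5.65, 5.49 and 6.54 in Tg and 5.73, 6.86, 7.83 and 7.51 in WT, a difference of −0.998 ± 0.388 (adjusted p = 0.191), and replicate 1 of WT lay among the Tg arrays. Without that replicate it was −1.41 (adjusted p = 0.0221), and without replicate 3 of WT −0.71 (adjusted p = 0.537). At PND 10 the groups overlapped and Sftpc differed by 0.83 ± 0.39 (adjusted p = 0.421), and by 0.45 without replicate 1 of Tg (adjusted p = 0.851). The other 8 genes differed by −0.25 to 0.37 at PND 3 and by −0.36 to 0.51 at PND 10.

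In adult SPF mice Napsa was lower and Etv5 higher in Tg. Napsa read 6.63, 6.28, 6.59 and 6.19 in Tg and 7.15, 7.29, 7.49 and 7.69 in WT. All 4 Tg arrays lay below all WT arrays, and the difference was −0.99 ± 0.21 (adjusted p = 0.00317). Napsa was the single gene of the 9 called lower, where 1.77% of features were, and Etv5 the single gene called higher, where 2.72% were. Etv5 read 5.53, 6.06, 5.33 and 5.82 in Tg and 3.75, 5.12, 4.48 and 4.62 in WT. All Tg arrays lay above all WT arrays, with a difference of 1.19 ± 0.30 (adjusted p = 0.016). Sftpc read 5.76, 5.21, 6.06 and 4.97 in Tg and 6.42, 6.07, 6.76 and 6.33 in WT, and although the groups did not overlap the difference of −0.89 ± 0.39 did not pass (adjusted p = 0.262). Of all features, 5.59% had every Tg array above and 5.64% every Tg array below every WT array.

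In adult GF mice Etv5 was again called higher in Tg, alone of the 9 genes, where 3.14% of features were. It read 5.48, 5.23 and 6.13 in Tg and 4.17, 4.38 and 4.32 in WT, with no overlap and a difference of 1.32 ± 0.35 (adjusted p = 0.021). Napsa read 6.85, 6.71 and 6.81 in Tg and 7.45, 7.54 and 7.55 in WT, also with no overlap, and its difference of −0.72 ± 0.24 did not pass (adjusted p = 0.0934). It did pass in a fit on these groups alone (adjusted p = 0.0101). Of all features, 9.21% had every Tg array above and 12.1% every Tg array below every WT array. The Etv5 calls rest on the feature used. Its other feature gave 0.33 in SPF mice (adjusted p = 0.499) and 0.70 in GF mice (adjusted p = 0.0612).

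The Etv5 call in SPF mice also ended without replicate 1 of WT (0.94, adjusted p = 0.105), replicate 2 of Tg (1.07, adjusted p = 0.0651) or replicate 4 of Tg (1.15, adjusted p = 0.0577). In GF mice the Etv5 call ended without replicate 1 (1.27), 2 (1.37) or 3 (1.34) of WT or replicate 3 of Tg (1.06), with adjusted p between 0.0553 and 0.202. In each of these the Etv5 difference stayed above 0. The Napsa call in SPF mice held without any of the 8 arrays, with a difference between −1.07 and −0.89.

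Dendritic cell and club cell genes were higher in the same adult Tg mice. Among all 28940 features, 2.72% in SPF and 3.14% in GF mice were called higher in Tg, and 512 were called lower in each housing. Of 12 dendritic cell genes, 9 rose in SPF and 7 in GF Tg mice, and the list mean ran between 5.20 and 5.65 in Tg and between 4.53 and 4.65 in WT in SPF housing, and between 5.42 and 5.99 in Tg and between 4.38 and 4.74 in WT in GF housing. Ccr7, a homing receptor of mature dendritic cells, rose by 0.94 in SPF and 1.48 in GF mice. Lamp3, which such cells carry too, stayed near background, at 3.11 to 3.24 in Tg and 3.04 to 3.12 in WT in SPF mice (0.10 ± 0.19, adjusted p = 0.949), and at 3.17 to 3.46 in Tg and 3.18 to 3.34 in WT in GF mice (0.04 ± 0.22, adjusted p = 0.989). Of 12 club cell genes 4 rose in each housing, with Scgb1a1 higher by 2.02 in SPF and 1.96 in GF mice. Of 18 further type 2 genes 0 passed in either housing, but 14 to 16 of them were near background in each adult group. Of 14 general epithelial genes, 1 rose and 1 fell in SPF and 1 rose and 2 fell in GF Tg mice. Epcam was lower by 2.10 on the log2 scale in SPF mice (adjusted p = 5.43e-07), averaging 4.67 in Tg and 6.77 in WT, and lower in GF mice too (adjusted p = 0.000808), averaging 5.35 in Tg and 6.85 in WT, while Cdh1 was higher by 1.03 in SPF and 1.42 in GF mice. In WT, Epcam had risen by 2.36 between PND 10 and PND 42 (limma adjusted p = 3.31e-07). At that age 10 of 14 general epithelial genes were near background in SPF WT mice. Of 12 neutrophil genes, 2 rose and 1 fell in SPF and 3 rose and 1 fell in GF Tg mice, and the list mean averaged 5.16 in Tg and 4.61 in WT in SPF housing and 5.72 in Tg and 4.62 in WT in GF housing. Marco, a scavenger receptor of macrophages, averaged 9.40 in Tg and 8.82 in WT in SPF mice and 8.51 in Tg and 7.99 in WT in GF mice, and did not pass in either (adjusted p = 0.193 in SPF, 0.388 in GF). The part of these cells in the values of Napsa and Etv5 was not tested.

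Of the genes listed for lipid processing, Scd1 rose in adult Tg mice by 2.62 in SPF and 3.97 in GF housing and Pcyt1a, a rate-limiting enzyme of phosphatidylcholine synthesis, by 0.60 in SPF and 0.94 in GF housing. Ctsh, a protease that also cuts surfactant protein precursors, fell in SPF mice (−0.42, adjusted p = 0.0136) and did not pass in GF mice (−0.20, adjusted p = 0.511). Of the 15 clearance genes, 4 rose and 2 fell in SPF and 5 rose and 1 fell in GF Tg mice. Fabp4 rose most of them (1.72 in SPF, 1.95 in GF). The scavenger receptors Msr1 (1.31 in SPF, 1.25 in GF) and Cd36 (1.01 in SPF, 1.20 in GF) rose too, and Scarb1 fell (−0.84 in SPF, −0.77 in GF). Siglecf fell by 0.90 in SPF mice and did not pass in GF mice (−0.71, adjusted p = 0.0765).

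**Figure D5:**
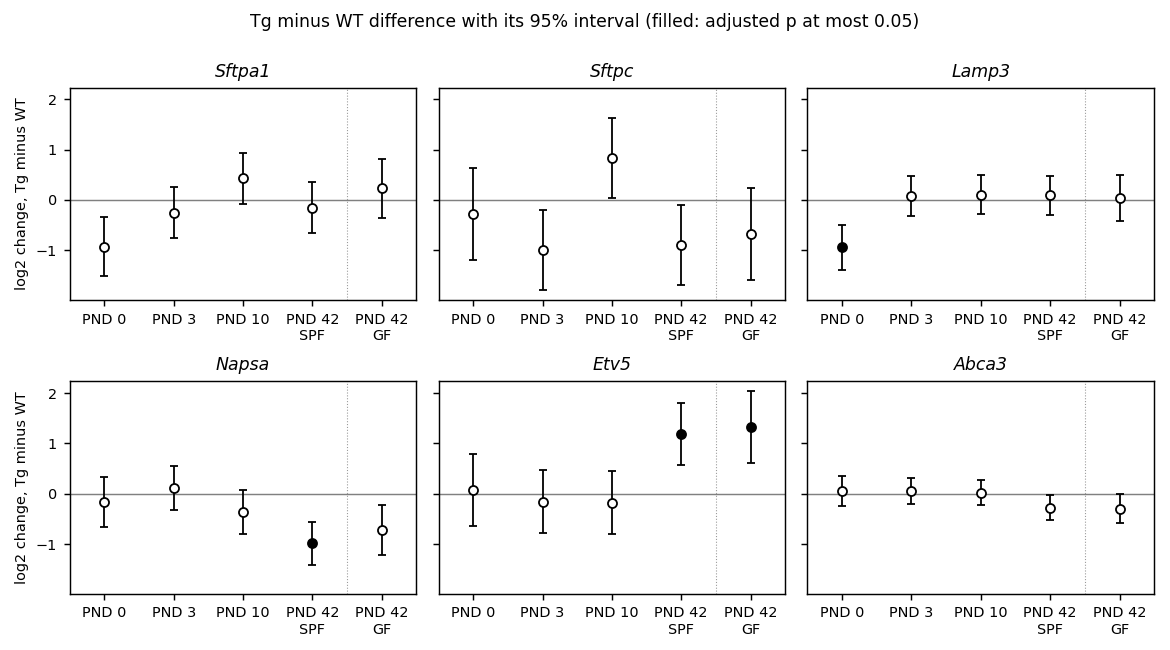
Points give the Tg minus WT difference of 6 of the genes on the log2 scale (vertical axis) at each age and housing, with the 95% interval of the fit, and are filled where the adjusted p was at most 0.05. The filled points are Lamp3 at PND 0 (−0.94), Napsa in SPF adults (−0.99) and Etv5 in SPF (1.19) and GF (1.32) adults.

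Sftpc was the gene of the 9 that differed most between housings. GF arrays read 6.90, 7.16 and 8.15 and SPF arrays 5.76, 5.21, 6.06 and 4.97 in Tg, and GF arrays read 7.53, 8.50 and 8.21 and SPF arrays 6.42, 6.07, 6.76 and 6.33 in WT. Every GF array lay above every SPF array in both genotypes. The difference was 1.90 ± 0.42 in Tg (adjusted p = 0.0578, 95% interval 1.04 to 2.76) and 1.68 ± 0.42 in WT (adjusted p = 0.236, 95% interval 0.83 to 2.54), and neither passed. No gene of the 9 was called, where 0.142% of features in Tg and 0.0657% in WT were, in either direction, and an unadjusted p under 0.05 was found for 2 genes in Tg (Sftpa1 and Sftpc) and 1 in WT (Sftpc). Every GF array lay above every SPF array for 3.62% of features in Tg and 4.04% in WT. In Tg, the Sftpc difference passed under 6 of 18 alternatives, among them array weights (adjusted p = 0.0424), 1 feature per gene (0.0451) and leaving out replicate 3 of SPF Tg (2.09, adjusted p = 0.0348), and over all 18 its adjusted p ran between 0.0348 and 0.397.

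The other 8 genes differed between GF and SPF mice by −0.07 to 0.73 in Tg and by −0.20 to 0.38 in WT. In Tg, Sftpa1 read 3.88, 3.50 and 4.83 in GF and 3.48, 3.22, 3.36 and 3.29 in SPF mice (0.73 ± 0.27, adjusted p = 0.403). No list gene for type 2, type 1, club or general epithelial cells passed between housings in either genotype. In the adult groups 14 to 16 of 18 further type 2 and 8 to 10 of 14 general epithelial genes were near background. For such genes this can show little. The housing difference was not shown to depend on genotype for any of the 9 genes, where 0.00346% of features were called in either direction, and that of Sftpc was 0.22 ± 0.59 (adjusted p = 1). GF mice were kept in a facility of their own, so that microbial status and facility cannot be told apart.

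The order of the 10 groups for Sftpc ran, from the highest mean, WT at PND 0 (11.32), Tg at PND 0 (11.04), GF WT (8.08), Tg at PND 10 (7.95), GF Tg (7.40), WT at PND 10 (7.12), WT at PND 3 (6.99), SPF WT at PND 42 (6.40), Tg at PND 3 (5.99) and SPF Tg at PND 42 (5.50). The arrays of each neighbouring pair in this order overlapped, apart from Tg at PND 0 and GF WT, and apart from the newborn pair, where the highest Tg array (11.13) lay below the lowest WT array (11.16) without the difference passing (−0.28 ± 0.45, adjusted p = 0.843, and −0.33, adjusted p = 0.835, without the library labelled Tg PND 0 replicate 3).

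Across the 36 arrays the genes most like Sftpc were Sftpb (Pearson's r = 0.92) and Sftpa1 (0.92), ranked 1 and 2 of 17985 genes. The nearest that are not among the 9 were S100g (0.91), Cldn18 (0.91), a tight junction protein of alveolar epithelium, Timp3 (0.90) and Lmo7 (0.89). Slc34a2, Sftpd and Lamp3 ranked 34, 40 and 42, Etv5 1988, Napsa 3309 and Abca3 13649 (r = −0.38). All these correlations span the gap between the 6 arrays of PND 0 and the other 30. Once group means were removed, Cxcl15 (0.67) and Spopfm2 (0.66) came first, then Sftpb (0.64, rank 3) and Sftpa1 (0.51, rank 59), while Sftpd (0.20) ranked 3081, Slc34a2 (0.19) 3117 and Napsa (−0.39) 17672. Ranks 4 to 7 were held by Olfr695 (0.64), Cyp4f41-ps (0.62), Trat1 (0.62) and Olfr378 (0.62). An r of this size was thus not particular to the 9 genes. Over the 10 group means, Sftpa1, Sftpb, Sftpd, Lamp3 and Slc34a2 correlated with each other at 0.98 to 0.99, and Abca3 with Etv5 at −0.90. These values too span the gap between PND 0 and later days, and so restate the fall after birth. For deviations from group means in the 30 later arrays, the 36 pairs of the 9 genes had r between −0.53 and 0.74. Their median was 0.06, and Abca3 with Etv5 was at 0.08.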

How the data were processed

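RNA of lavage macrophages purified by negative selection was amplified and hybridised by the authors to 36 Affymetrix Mouse Gene 1.0 ST arrays. The deposited log2 values had been made by the authors with RMA (background correction, quantile normalisation and median polish), for which the submitters' processing notes name Partek 6.5, and were used without further normalisation. The table holds 1 value per transcript cluster (feature), whereas the methods describe a summary per gene. Of 35556 features, 6616 numbered below the first annotated one were left out, and 28940 were analysed, of which 21218 had exactly 1 gene symbol, 1881 several and 5841 none.

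All 36 arrays entered a single linear model in limma 3.58.1 (R 4.3.3) with a mean per group, 10 in all. Moderated tests were two-sided, p-values were adjusted by the Benjamini-Hochberg method over all features within each of 15 contrasts, and the threshold was an adjusted p of 0.05. A further 2 contrasts, the interactions after PND 3, were added after values had been seen. The text names the 9 genes, up to 4 called genes of largest change per list, and Scgb1a1, Scnn1b, Epcam, Cdh1, Nkx2-1, Ager, Ccr7, Marco and Siglecf. Pparg, Chil1, Fasn, Csf2ra, Ctsh and Scarb1 are named besides for their roles, after their values had been seen. The genes and lists were chosen with earlier results of these data known. Some genes stand on more than 1 list, and the lists leave out genes with no feature of their own. The lists held genes of type 2 and type 1, club, ciliated and general epithelial cells, lipid processing, clearance, macrophages, dendritic cells, neutrophils, fibroblasts, skeletal muscle, endothelium and red cells, the last with 7 of 12 genes measured.

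Alternatives were a filter on dim features, a separate fit of the groups being compared, weights per array, weights by group variance, repeated quantile normalisation, median centring, a trended robust prior, 1 feature per gene, stricter limits, a replicate block, each array left out in turn and, added after seeing the data, the PND 0 arrays numbered 3 omitted in Tg and WT at once, and the list counts at PND 0 without the Tg array of that number. Replicate numbers were not treated as a pairing. Same-numbered arrays of the genotypes had deviations that correlated at −0.126 to 0.244, which cannot show whether the numbers pair the samples. The fits were tested on simulated data. The number of arrays limits the precision. Replicates were labelled as biological. Sequences and coordinates are those of RefSeq on GRCm38.p6.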

Additional observations from a re-analysis of the deposited data

Results flagged for a closer look

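Napsa in replicate 1 of Tg at PND 10 read 6.18, far below the other 3 arrays of its group, which read 7.17 to 7.38. Its gap to the nearest array was 0.831 of the range of the group. This was the only such array among 54 combinations of gene and group with 4 arrays, and chance alone would be expected to give about 1 in 20. The same array was the highest of its group for Sftpa1, Sftpb and Sftpc. Without it the change of Napsa in Tg between PND 10 and PND 42 was −0.83 (adjusted p = 0.00888), and with it −0.56 (adjusted p = 0.147).

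The fall of Lamp3 after birth differed between genotypes by 1.02 on the log2 scale in the test of the interaction (Tg minus WT, adjusted p = 0.0482). With both PND 3 means near background, this mostly restates the genotype difference at PND 0. At PND 0 replicate 3 of WT read 7.39 and the other WT arrays 6.22 and 6.00, and without that array the difference was 0.59 (adjusted p = 0.118).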

How the results depend on the processing

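The 7 falls after birth were called in both genotypes under every alternative in which the gene was tested (the filter on dim features left out Lamp3), and no change of a gene that was called, as reported or under the alternative, turned its sign. Changes called in neither turned their sign in 162 of the recomputed values, Slc34a2 between Tg and WT at PND 0 among them (−0.35 as reported, 0.39 without replicate 3 of WT). Of 347 counts of called genes recomputed, 294 stayed within 1.5 times the count reported and 53 did not, and of 3123 changes of single genes 3062 kept their side of the threshold. Where an alternative moved a call, the cause was not tested, except that a filter or a stricter limit leaves fewer features or calls by construction.

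At PND 0 the count of genes differing between Tg and WT, 1 as reported, was 0 with the filter on dim features (which left out Lamp3), in the separate fit of the compared groups, with weights per array, with a limit of 2-fold and with an adjusted p of 0.01, and 2 with median centring and with 1 feature per gene, where Sftpa1 was added. In SPF adults the count of 2 was 1 with the limit of 2-fold and 1 with an adjusted p of 0.01. In GF adults the count of 1 was 2 in the separate fit of the compared groups, with weights per array and with weights by group variance, where Napsa was added, and 0 with an adjusted p of 0.01. Between PND 3 and PND 10 in Tg the count of 1 was 2 with the filter on dim features and 0 in the separate fit of the compared groups. Between PND 10 and PND 42 in Tg the count of 1 was 2 with that filter and 2 with weights per array. Between GF and SPF mice the count of 0 was 1 in Tg with that filter, weights per array, weights by group variance, the trended robust prior and 1 feature per gene, and 1 in WT with weights per array. The Lamp3 interaction, the 1 gene called, gave a count of 0 with that filter, the separate fit of the compared groups, weights per array, weights by group variance and an adjusted p of 0.01.

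With the replicate number as a block the count for the interaction of PND 0 and PND 3 was 0 (Lamp3, 1.02, adjusted p = 0.0555), and the block changed no other count. The samples share only a number, so this block is not known to be a pairing.

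With each array left out in turn, the counts ranged from 0 to 2 at PND 0, 0 to 1 at PND 3, 0 to 0 at PND 10, 1 to 2 in SPF and 0 to 1 in GF adults between genotypes. They ranged from 7 to 8 in Tg and 7 to 8 in WT after birth, 1 to 2 in Tg and 0 to 0 in WT at each later step, 0 to 1 in Tg and 0 to 0 in WT between housings, and 0 to 1 for the Lamp3 interaction and 0 to 0 for the other interactions. Signal near background limits the folds of Sftpa1, Sftpb, Sftpd, Lamp3 and Slc34a2 after birth to lower bounds.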
